A study of Mus musculus with 6 samples.

Results

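Interferon-inducible genes, which cells switch on when an interferon has bound its receptor, were examined in kidneys of wild-type and homozygous mutant mice. The set was a list of 32 gene symbols, and a gene was read from the probes whose platform annotation gave exactly 1 symbol. Where a gene had several such probes, the one with the highest mean log2 level over the 6 arrays stood for it. Of the 32 genes, 26 had such a probe, out of 18004 genes with one in the whole table. Ifit3, Ifi203, Ifi204 and Tgtp1 appeared only on probes annotated to several genes, and these probes, as well as Oas1g and Ifi44, were not analysed here. All 26 genes passed the filter on dim probes and were tested.

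Each genotype had 3 animals, wild type or homozygous mutant (KO in the labels), with 1 single-colour CodeLink array per animal. RNA was taken from part of a kidney that had been flushed with saline and frozen. The sources used here name neither the mutated gene nor strain, sex or age, so the mutation itself could not be checked against the labels. Levels below are log2 intensities relative to the median of the array, and differences are mutant minus wild type.

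The arrays gave a kidney profile, with Umod, the uromodulin of the thick ascending limb, at 7.69 ± 0.12 (SD, n = 3) in wild type and Slc34a1, the phosphate transporter of the proximal tubule, at 6.46 ± 0.073 (SD, n = 3). The kidney markers Slc5a2 and Podxl lay below the low-signal limit in both genotypes. That limit, 0.60 log2, is 3 spreads of the lowest values above their mode, and each array had 38.9% to 43.0% of its values above it. The median SD of a probe over 3 arrays was 0.34 log2 in wild type and 0.31 in mutants. Replicate 1 of each genotype carried a sex-linked pattern of its own: Xist was at 2.21 on the wild-type array and 3.00 on the mutant array and below the limit on the other arrays, while Eif2s3y, a Y-linked gene, was at the floor of -1.79 on both and between 3.01 and 3.46 on the others. Both genotypes thus held the same mix of this pattern.

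Type I interferons act through a receptor whose kinases activate a complex that holds Stat2 and Irf9 and binds the interferon-stimulated response element (ISRE) of antiviral genes. Interferon gamma acts through another receptor and leads to binding at gamma-activated sites (GAS) of genes such as Irf1 and of the GTPases that attack the vacuoles of intracellular parasites. The response is not exclusive, since many of these genes answer to both kinds of interferon, and the split used here goes by the main inducer. In kidney, tubular cells, endothelium and resident or infiltrating leukocytes can all respond.

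The control regions of some members show the 2 kinds of element. RefSeq promoters (GRCm38.p6), which run from 250 bases before to 50 bases after a start site, were in the table used for 25 of the 32 genes. The core ISRE was searched as GAAA followed after any 2 bases by another GAAA, on both strands, so that it reads as a pair of TTTC on the other strand. The core GAS was searched as TTC followed after any 3 bases by GAA, which reads the same on both strands. An ISRE core was found for 15 of the 25 genes, against 3.99% of the 27025 genes in the table, and a GAS core for 8 of the 25, against 9.55%. By main inducer, 10 of 17 type I genes and 5 of 8 gamma genes held an ISRE core, so this core did not follow the split. For the GAS core these counts were 4 of 17 and 4 of 8. Among the GTPases with an entry, Igtp and Tgtp1 held a GAS core, while Irgm1, Gbp2, Gbp3 and Ifi47 held none. The stretches below are from members that rose in mutants and, in the last pair, from members that did not pass the test. Each reads 5′ to 3′ on the strand of the gene, with the matched cores in capitals, and overlapping cores run together.

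Bst2: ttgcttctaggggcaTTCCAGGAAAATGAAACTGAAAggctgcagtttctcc
Ifit1: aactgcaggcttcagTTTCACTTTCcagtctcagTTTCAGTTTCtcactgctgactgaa
Irgm1: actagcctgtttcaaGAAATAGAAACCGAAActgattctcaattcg
Gbp3: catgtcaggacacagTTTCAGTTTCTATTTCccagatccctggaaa
Irf1: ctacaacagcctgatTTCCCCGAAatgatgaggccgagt
Isg15: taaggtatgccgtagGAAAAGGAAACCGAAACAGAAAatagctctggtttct
Rsad2: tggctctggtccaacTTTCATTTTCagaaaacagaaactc

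These lie at chr8:71537572-71537623 (minus strand) for Bst2, chr19:34640770-34640828 (plus) for Ifit1, chr11:48871420-48871465 (minus) for Irgm1, chr3:142559984-142560029 (plus) for Gbp3, chr11:53769909-53769947 (plus) for Irf1, chr4:156200860-156200911 (minus) for Isg15 and chr12:26456548-26456587 (minus) for Rsad2. All lie before the start site, apart from the last base of the Irgm1 stretch. The Bst2 stretch holds 2 overlapping ISRE cores and a GAS core that overlaps the first of them, and the Isg15 stretch 3 overlapping ISRE cores. Of the members that rose and had an entry, 5 of 10 held an ISRE core, and of those that did not pass, 6 of 10. For the GAS core these counts were 2 of 10 and 5 of 10. Oasl2, Ifi47, Irf7 and Irf9, which rose, held neither core in the promoters given. A match to these letters is a description of the sequence and not evidence of a bound site.

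Of the 26 genes, 13 rose in mutant kidney, 0 fell and 13 did not pass the test (limma with Benjamini-Hochberg adjustment over 25834 probes, threshold 0.05). Of all probes tested, 4.11% rose and 1.27% fell, and of all genes by their brightest probe 5.67% rose and 1.59% fell. Among the 10147 genes above the low-signal limit in the mean of a genotype, 8.25% rose and 2.32% fell, and 13 of the 18 members in that class rose. Irf9, which rose, and Igtp, which did not pass, entered the class through the mutant mean alone. A class formed in this way can favour genes that differ. The 13 increases ran from 0.72 log2 for Ifih1 to 1.77 for Oas2, or from 1.65-fold to 3.40-fold. The difference was positive in 23 of the 26 members, against 57.5% of all genes tested. The median difference over the 26 was 0.87 log2, against 0.080 over all genes tested. On all 6 arrays 23 members had a value, and in 13 of them every mutant lay above every wild type, against 14.9% of all probes measured on 6 arrays. In 1 member, Xaf1, every mutant lay below every wild type, against 8.32% of those probes.

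The calls depended on how the variance was modelled. With no intensity trend in the prior variance, only Irf9 passed (adjusted p = 0.0481), although the differences are the same in that fit and 179 of 25834 probes then passed as higher. Without mutant replicate 1, 8 of the 13 passed and 0 others did.

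**Figure D1:**
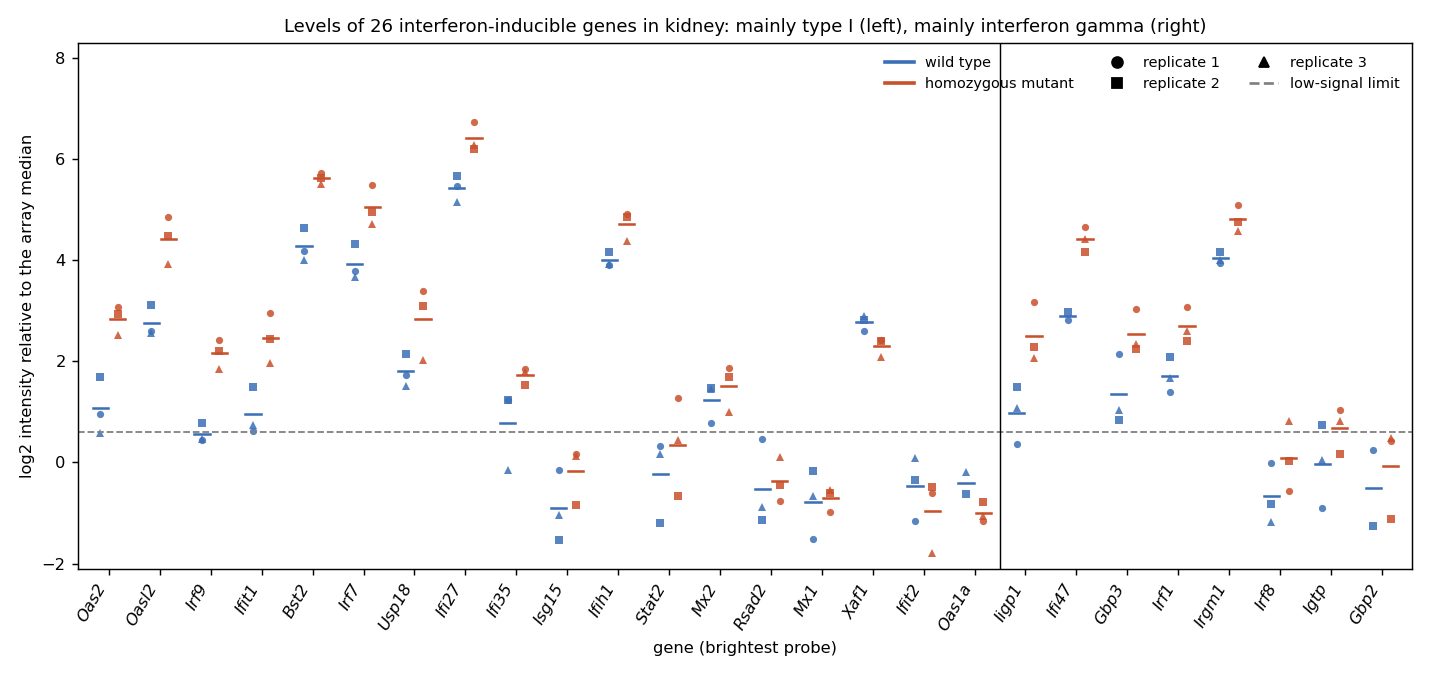
Log2 intensity relative to the array median (y axis) of the 26 interferon-inducible genes (x axis) on each array, with wild type in blue and homozygous mutant in red, a symbol for each replicate number, a bar at the mean of the genotype and a dashed line at the low-signal limit of 0.60. Mutant arrays of Bst2, Oasl2, Oas2 and Ifi47 lie above all their wild-type arrays, while Isg15, Rsad2, Mx1, Ifit2 and Oas1a lie below the limit in both genotypes.

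By main inducer, 8 of 18 type I genes rose, with a median difference of 0.84 log2, and 5 of 8 interferon gamma genes rose, with a median of 0.88. With genes below the low-signal limit in both genotypes set to 0, and those below it in 1 genotype set to their bound, these medians were 0.84 and 0.88. The 2 classes therefore showed medians less than 0.1 log2 apart, and no test of one class against the other was made. Above the limit in a genotype were 12 of the 18 type I genes and 6 of the 8 gamma genes. The gamma count was the less stable: it was 2 without mutant replicate 1, and 3 without mutant replicate 3 or any 1 of the wild-type arrays. For wild-type replicates 1 and 2 this includes the loss of Ifi47, which had no value on wild-type replicate 3 and could then not be tested.

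**Figure D2:**
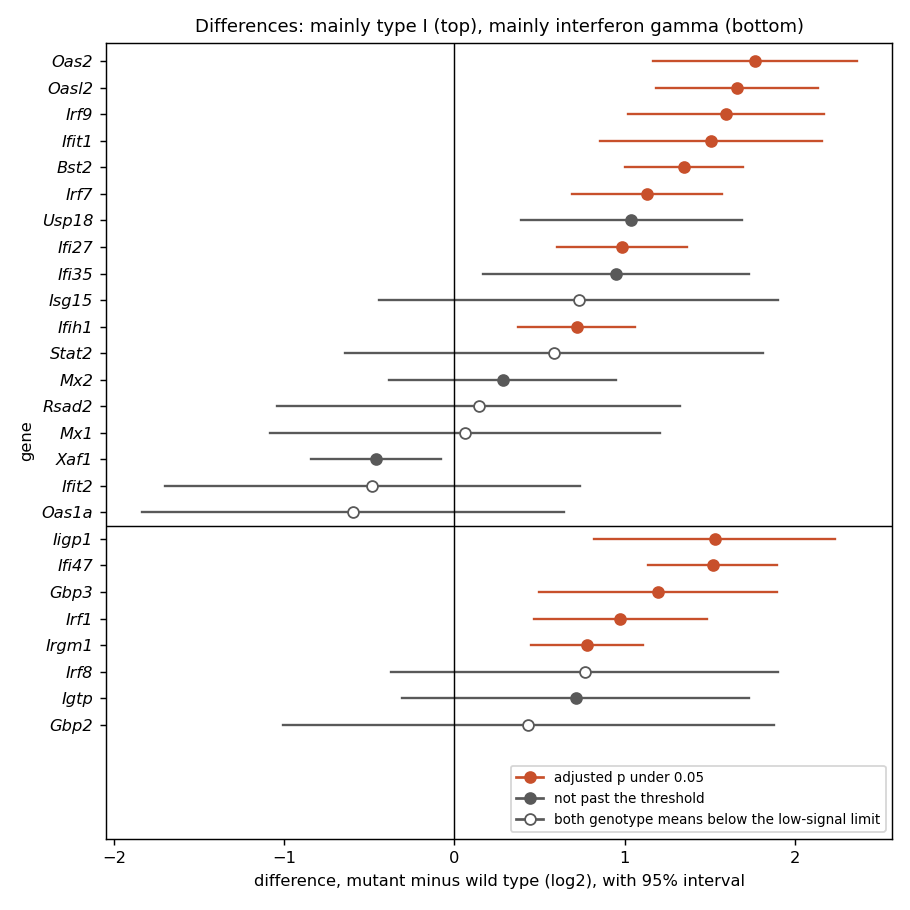
Difference, mutant minus wild type in log2, of each of the 26 genes with its 95% interval from the limma fit; red marks genes past the adjusted p threshold of 0.05, grey those that were not, and open circles genes whose means lay below the low-signal limit in both genotypes. All 13 red genes are to the right of 0, and the open circles have the widest intervals.

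Among the oligoadenylate synthetases, which make a second messenger that switches on RNA decay, Oas2 lay at 0.96, 1.69 and 0.58 on the wild-type arrays and at 3.07, 2.93 and 2.52 on the mutant arrays. All mutants were above all wild types, and Oas2 rose by 1.77 ± 0.28 (SE, limma adjusted p = 0.0016). Oasl2, a relative with ubiquitin-like domains, was at 2.59, 3.12 and 2.56 in wild type and at 4.86, 4.47 and 3.92 in mutants. It rose by 1.66 ± 0.22 (limma adjusted p = 4.3e-04). Oas1a, whose sequence is shared in large part with its neighbours in a gene cluster, stayed below the limit on every array that had a value, from -1.17 to -0.20, and with 2 wild-type values in the fit differed by -0.60 ± 0.57. The related Oas1b and Oas3, which are not members, differed by 0.54 ± 0.51 and 0.54 ± 0.26 and did not pass, whereas Oasl1 rose by 1.80 ± 0.43 (adjusted p = 0.026).

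Among antiviral effectors that act on the virus itself, Bst2 and Ifit1 rose, Mx2 did not pass, and Ifit2, Mx1 and Rsad2 stayed under the limit. Bst2, or tetherin, holds budding virus particles at the cell surface. Its level was 4.17, 4.63 and 4.01 in wild type and 5.72, 5.63 and 5.51 in mutants. The mutant arrays were within 0.21 log2 of each other and clear of wild type, and the rise of 1.35 ± 0.16 had the smallest adjusted p of the set (limma, 1.8e-04). Ifit1, which binds viral RNA lacking the host cap mark, was at 0.62, 1.49 and 0.74 in wild type and at 2.96, 2.44 and 1.97 in mutants. It rose by 1.51 ± 0.30 (adjusted p = 0.0088), and had an adjusted p of 0.062 without mutant replicate 1.

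Ifit2, Mx1 and Rsad2 did not reach the limit on any array. Ifit2 and Rsad2 are strongly interferon-induced in most cell types, and Mx1 is a dynamin-like GTPase whose gene is disrupted in many inbred strains. Their differences were -0.48 ± 0.57, 0.063 ± 0.53 and 0.14 ± 0.55, in the order Ifit2, Mx1, Rsad2. The 95% interval of each spans more than 2 log2 units and includes a rise as large as that of Ifih1, so a change of that size was not detectable. Mx2, which was above the limit on all arrays, was at 0.77, 1.46 and 1.45 in wild type and 1.86, 1.68 and 0.99 in mutants. These groups overlapped, and the difference of 0.28 ± 0.31 had a 95% interval from -0.38 to 0.95.

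Isg15 is a ubiquitin-like modifier and Usp18 the protease that removes it and also damps signalling at the type I receptor. Isg15 was below the limit on all arrays, at -0.16, -1.53 and -1.04 in wild type and 0.17, -0.84 and 0.13 in mutants, with a difference of 0.73 ± 0.55. Usp18 was at 1.73, 2.15 and 1.52 in wild type and at 3.39, 3.10 and 2.03 in mutants, and mutant replicate 3 lay below wild-type replicate 2. Its difference was 1.04 ± 0.30, with a limma adjusted p of 0.066. It passed without mutant replicate 3, with a difference of 1.45 (adjusted p = 0.0047), whereas Isg15 did not pass in any of the alternative fits.

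Of the 5 members that encode transcription factors, 3 rose and 2 had both genotype means below the limit. Irf7, the master regulator that amplifies type I responses, was at 3.79, 4.31 and 3.66 in wild type and at 5.49, 4.96 and 4.72 in mutants, and rose by 1.13 ± 0.20 (limma adjusted p = 0.0044). Irf9, a DNA-binding part of the complex that holds Stat2, was at 0.44, 0.79 and 0.46 in wild type and at 2.42, 2.21 and 1.85 in mutants. Its wild-type mean of 0.56 ± 0.19 (SD, n = 3) lay just below the limit, so the change is given as at least 2.83-fold higher (adjusted p = 0.0027), reckoned from the limit on arrays below it. Irf9 was the member whose call held in every alternative fit, 21 of 21.

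Irf1, an early target of interferon gamma signalling, was at 1.39, 2.09 and 1.67 in wild type and at 3.07, 2.40 and 2.60 in mutants. The groups did not overlap, and Irf1 rose by 0.98 ± 0.24 (limma adjusted p = 0.028). This call was lost without mutant replicate 1 or 3 or wild-type replicate 1 or 3, with adjusted p between 0.071 and 0.14. Stat2 and Irf8, the latter a factor of myeloid and B cells, had mean levels under the limit whatever the genotype and differed by 0.58 ± 0.57 and 0.77 ± 0.53 without passing. Stat2 reached the limit on mutant replicate 1 alone, at 1.28, and Irf8 on mutant replicate 3 alone, at 0.81.

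Ifih1, or Mda5, senses long double-stranded RNA in the cytosol. It was at 3.90, 4.16 and 3.92 in wild type and at 4.91, 4.85 and 4.38 in mutants, the smallest rise among the 13 at 0.72 ± 0.16 (limma adjusted p = 0.017). Leaving out wild-type replicate 3, mutant replicate 1 or mutant replicate 2 ended this call, with adjusted p from 0.081 to 0.096.

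Of the immunity-related and guanylate-binding GTPases, which coat and break up vacuoles that hold parasites or bacteria, 4 of 6 measured members rose. Ifi47 (Irg-47) was at 2.82 and 2.97 on the 2 wild-type arrays with a value and at 4.65, 4.17 and 4.42 in mutants, the widest gap between groups in the set at 1.20 log2. It rose by 1.52 ± 0.18 (limma adjusted p = 2.0e-04, with 2 wild-type values in the fit). Irgm1, which keeps the other GTPases off the cell's own membranes, was at 3.94, 4.16 and 3.997 in wild type and at 5.10, 4.76 and 4.58 in mutants, a rise of 0.78 ± 0.15 (adjusted p = 0.0074). Irgm1 was tight in wild type, with an SD of 0.11 log2.

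Iigp1, an effector that attacks the vacuole of Toxoplasma, was at 0.37, 1.49 and 1.08 in wild type and at 3.17, 2.28 and 2.07 in mutants. It rose by 1.53 ± 0.33 (limma adjusted p = 0.014) and had an adjusted p of 0.086 without mutant replicate 1. A second Iigp1 probe had both genotype means under the limit and differed by 1.23 ± 0.51 without passing. Gbp3 was at 2.15, 0.85 and 1.03 in wild type and at 3.04, 2.25 and 2.34 in mutants. The lowest mutant lay only 0.095 log2 above wild-type replicate 1, and Gbp3 was the member closest to the threshold, with a rise of 1.20 ± 0.32 and an adjusted p of 0.048, which was lost in 14 of 21 alternative fits.

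Igtp, a regulator of the same GTPase system, was at -0.90, 0.74 and 0.06 in wild type and at 1.04, 0.17 and 0.82 in mutants, so that the groups overlapped, and its difference was 0.71 ± 0.47. Gbp2 was below the limit on all 5 arrays that had a value, with a difference of 0.43 ± 0.67 from 2 wild-type values. Guanylate-binding genes form clusters of close relatives, so the values of Gbp2 and Gbp3 are uncertain as to the gene.

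Of the remaining members Ifi27, a membrane protein of mitochondria and the nuclear envelope, was at 5.46, 5.66 and 5.14 in wild type and at 6.74, 6.19 and 6.29 in mutants. Both groups were far above the limit and did not overlap, and Ifi27 rose by 0.98 ± 0.18 (limma adjusted p = 0.0044). Ifi35, a leucine zipper protein, was at 1.24, 1.24 and -0.15 in wild type and at 1.86, 1.54 and 1.79 in mutants. These groups did not overlap either, but wild-type replicate 3 stood apart and the difference of 0.95 ± 0.36 did not pass (adjusted p = 0.18).

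Xaf1, a partner and antagonist of the apoptosis inhibitor Xiap, was the bright exception in direction. It was at 2.61, 2.82 and 2.89 in wild type and at 2.43, 2.41 and 2.09 in mutants, with every mutant below every wild type. The difference of -0.46 ± 0.18 did not pass (limma adjusted p = 0.19), but it did after quantile normalization (-0.61, adjusted p = 0.045) and after cyclic loess (adjusted p = 0.042). The other Xaf1 probes, both dimmer, differed by 0.60 ± 0.43 and 0.94 ± 0.69, that is in the opposite direction, and with the 3 probes averaged the difference was 0.36.

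The members that rose were mostly highest on the same array of each genotype. On mutant replicate 1 the median of the 13 genes lay 1.69 log2 above their wild-type means, on replicate 2 it lay 1.27 above and on replicate 3 it lay 1.02 above. Mutant replicate 1 was the highest mutant array for 12 of 12 such genes with values on all 6 arrays, against 53.6% of the 797 genes of the whole table that rose and had 6 values. In wild type, replicate 2 was the highest array for 11 of the 12, with a median of 0.36 above the wild-type mean, against 55.7% of those 797 genes. By class, the 8 type I genes had medians of 1.71, 1.42 and 1.09 on mutant replicates 1, 2 and 3, and the 5 gamma genes had 1.69, 0.90 and 0.999, so replicate 1 was highest in both classes but the order of replicates 2 and 3 differed. Since these genes share their animals and libraries, the counts describe 1 array each and carry no test.

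**Figure D3:**
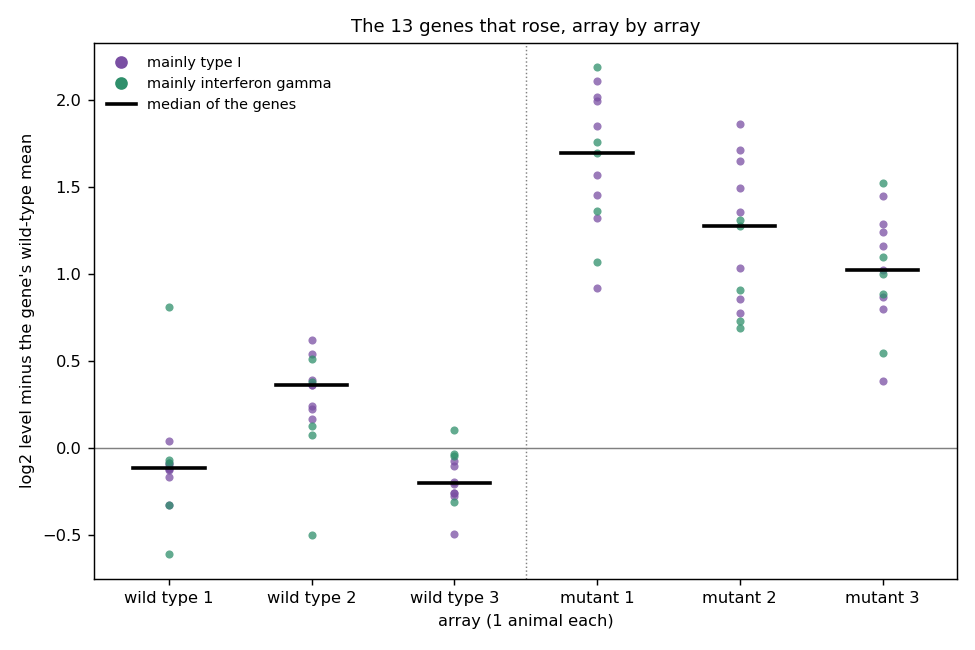
Log2 level minus the wild-type mean of the same gene (y axis) for the 13 genes that rose, on each of the 6 arrays (x axis), with type I genes in purple, interferon gamma genes in green and a black bar at the median. The medians of the mutant arrays are 1.69, 1.27 and 1.02, and wild-type replicate 2 is the highest wild-type array at 0.36.

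Because replicate 1 had its own sex-linked pattern, the comparison was also read within each pattern. For replicate 1 alone, with 1 array of each genotype and no test, the differences were 1.55 for Bst2, 2.27 for Oasl2, 1.69 for Irf1 and 2.80 for Iigp1. For replicates 2 and 3 they were 1.25, 1.35, 0.62 and 0.89 in the same order. The replicate 1 difference was the larger one for 12 of the 13 genes that rose, as it was for 80.7% of the 829 genes of the table that rose and had both values. With replicates 2 and 3 only, 7 of 24 members tested passed, 6 of them type I genes and 1 a gamma gene (Gbp3). Ifi47 and Gbp2, with a wild-type value missing, could not be fitted there. With replicate 1 set against the others as a block over all arrays, 13 rose.

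No interferon gene passed the test. Of 12 ligand genes listed, 8 had a probe, all 8 had both genotype means under the limit, and 0 of the 4 tested passed (limma, with adjusted p of at least 0.67). Single arrays were above the limit for Ifnl3, on mutant replicates 2 and 3 (0.98 and 0.85) and no wild type, and for Ifnab, on wild-type replicate 2 (0.83) and mutant replicate 3 (0.62). Ifnb1 was at -1.77, -1.79 and -0.36 in wild type and at -0.97, -1.08 and -1.20 in mutants. Ifng was at 0.03, -0.08 and -1.79 in wild type and at -0.82, -1.42 and -1.79 in mutants. Both fell under the filter on dim probes, and a change in either was not detectable on these arrays.

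Of 8 tested genes of the receptors and the Jak-Stat relay, 1 rose and 0 fell, against 5.67% and 1.59% of all genes tested. This was Jak2, a kinase of the gamma receptor, under the limit in all 3 wild types and at 0.94 ± 0.30 (SD, n = 3) in mutants, or at least 1.27-fold higher (limma adjusted p = 0.042). The call for Jak2 was lost without mutant replicate 1, 2 or 3 or wild-type replicate 1. Ifngr1, the ligand-binding chain of the gamma receptor, had every mutant above every wild type and differed by 1.15 ± 0.32 (limma adjusted p = 0.0505). The same separation held for 7 of the 9 genes of this list with a probe, against 14.9% of all probes measured on 6 arrays. All 8 tested differences were positive, against 57.5% of all genes tested. Ifnar1 and Jak1 differed by 0.35 ± 0.15 and 0.32 ± 0.15 and did not pass. Of 7 negative regulators 0 rose, and Socs1, which blocks Jak kinases, differed by 0.54 ± 0.54 with means below the limit. Socs3 was at least 1.96-fold higher without passing (difference 1.33 ± 0.43, limma adjusted p = 0.11). It was 1 of 2 among the 7 with every mutant above every wild type. Of the 7 differences, 5 were positive and 2 negative.

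Of 17 tested sensors and adaptors 4 rose and 0 fell, against 5.67% and 1.59% of all genes tested. Sting1, the adaptor for cytosolic DNA, was at 0.79, 2.18 and 1.88 in wild type and at 4.24, 3.95 and 3.81 in mutants, a rise of 2.39 ± 0.28 (limma adjusted p = 1.7e-04). Zbp1, a sensor of Z-form nucleic acid, was below the limit in wild type and at 1.59 ± 0.024 (SD, n = 3) in mutants, or at least 2.00-fold higher. Myd88, the adaptor of Toll-like receptors, rose by 1.13 ± 0.25, and Ikbke, a kinase that activates Irf3 and Irf7, by 1.33 ± 0.28. Cgas, Mavs and Tbk1, which act beside them in the same relays, differed by 0.096 ± 0.24, -0.088 ± 0.15 and 0.048 ± 0.18. The 4 calls fell to 1 without mutant replicate 1 or 2 and to 2 without mutant replicate 3.

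Among 45 further interferon-inducible genes tested, 19 rose and 0 fell, against 5.67% and 1.59% of all genes tested. The median difference of the 45 was 0.84 log2, against 0.080 over all genes tested. The median was 0.72 with genes below the limit set to 0 or to their bound in the same way. Ifitm3 and Ifitm1, which block virus entry at membranes, rose by 1.24 ± 0.18 and 1.03 ± 0.15 from levels of 6.15 and 5.25 in wild type. Lgals3bp, a secreted glycoprotein, rose by 1.13 ± 0.17. Serping1, the C1 inhibitor, rose by 2.15 ± 0.17, Ubd, a ubiquitin-like modifier, was at least 11.4-fold higher, and the chemokine gene Cxcl10 was at least 4.32-fold higher. Without mutant replicate 1 the count was 10, and without the other arrays in turn it ran from 12 to 17.

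**Figure D4:**
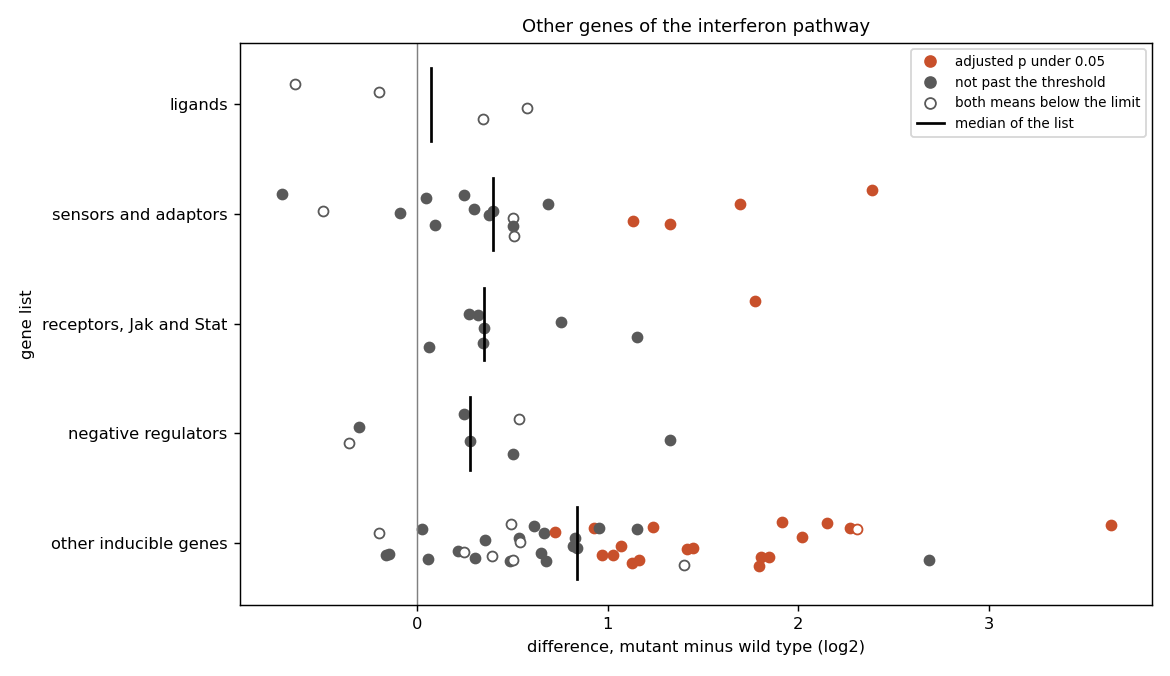
Difference, mutant minus wild type in log2 (x axis), of the tested genes of 5 other lists of the interferon pathway (y axis); red marks genes past the adjusted p threshold of 0.05, grey those that were not, open circles genes below the low-signal limit in both genotypes, and black bars the list medians. Ligands have no red point, and the other inducible genes have 19 of 45, against 5.67% of all genes tested, with a list median of 0.84.

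Of the leukocyte marker lists, that of macrophages and monocytes had the most markers that rose. Of its 12 markers with a probe, 11 were tested, of which 6 rose and 0 fell, against 5.67% and 1.59% of all genes tested. The summed linear level of the 12, in multiples of the array median, ran from 30.7 to 35.3 in wild type. In mutants it ran from 126 to 179, highest on mutant replicate 1. Adgre1, Itgam, Cd163 and Ccr2 were below the limit in both genotypes. Of 6 T cell markers 1 rose (Cd3d), with summed levels from 6.03 to 7.92 in wild type and from 11.04 to 26.6 in mutants, again highest on mutant replicate 1, and Cd3e and Cd8a were below the limit. Of 7 dendritic cell markers 2 rose, with sums from 16.1 to 21.9 and from 25.7 to 30.6. Flt3 and Clec9a were below the limit in both genotypes.

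For 5 markers of plasmacytoid dendritic cells, which make much type I interferon, 0 rose and the sums overlapped. The sums ran from 5.34 to 7.69 in wild type and from 6.30 to 7.64 in mutants. Siglech and Ccr9 were below the limit in both genotypes, so the sums cannot show a change in them. Ly6d had every mutant above every wild type without passing (difference 0.92 ± 0.32, limma adjusted p = 0.14). Of the 5 differences, 2 were positive and 3 negative. All 7 NK cell markers had genotype means under the limit, and 0 of the 5 tested rose. Sums over the 7 ran from 3.10 to 3.72 in wild type and from 3.75 to 8.24 in mutants, highest on mutant replicate 1. On that array Gzma (1.76) and Nkg7 (1.37) were above the limit, and Klrk1 had every mutant above every wild type without passing (difference 1.71 ± 0.50, limma adjusted p = 0.068). Of 5 B and plasma cell markers 4 were tested and 1 rose (Ighm), against 5.67% of all genes tested. Ms4a1 and Jchain were below the limit in both genotypes. Sums over the 5 ran from 11.2 to 12.0 in wild type and from 15.8 to 17.1 in mutants. Of 5 neutrophil markers 4 were tested and 0 rose, with sums over the 5 from 4.03 to 5.69 and from 5.49 to 6.53. Mpo, Elane and Cxcr2 were below the limit in both genotypes. Of 6 endothelial markers 5 were tested and 0 rose, and Cdh5 was below the limit in both genotypes. Sums over the 6 ran from 50.8 to 54.3 in wild type and from 59.4 to 70.7 in mutants. Proximal tubule markers ran the other way, with 3 of 8 lower, against 1.59% of all genes tested. Their sums ran from 536 to 577 in wild type and from 333 to 377 in mutants. In RNA from whole tissue, more cells of a type and more RNA per cell cannot be told apart, and the part of these cell types in the rise of the interferon-inducible genes was not tested.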

How the data were processed

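The authors deposited a linear intensity for each of 34937 probes on each array. The values had array medians between 0.994 and 0.997 and ran from -1.02 to 951, which is how values look after background subtraction and scaling per array. Software and settings were not given in the sources used here. Every array was scaled to its own median. Values not above 0 were dropped, positive values below their 10th percentile (0.290) were raised to it, and log2 was taken. Probes with values on at least 2 arrays of each genotype (34445), less the lowest 25% by mean log2, were tested (25834) in R 4.3.3 (limma 3.58.1; lmFit, then eBayes with the prior variance following intensity), two-sided, as mutant minus wild type, with Benjamini-Hochberg adjustment over all 25834. The code was tested on simulated arrays. Errors are SEs of the fit or SDs, as marked. The intervals come from the same fit, with 3 arrays for each genotype and a variance that draws on all probes tested. They depend on how that variance is modelled: with no intensity trend the SE of Bst2 was 0.23, against 0.16.

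The low-signal limit (1.51 times the array median, or 0.60 log2) is the mode of the linear values plus 3 times the spread below it. Where 1 genotype's mean lay below it, the change is "at least N-fold", with arrays below the limit set to it. The 32 members, the split by inducer, the pathway and marker lists, the limit and the tests were chosen with earlier results of these data known. All members are named. Of other lists, up to 6 genes of smallest p past the threshold plus Socs1, Ifng and Ifnb1 are named. Further genes were chosen after their values were seen: the kidney markers, Xist, Eif2s3y, Oas1b, Oas3, Oasl1, Ifngr1, Ifnar1, Jak1, Cgas, Mavs and Tbk1. The same holds for Socs3, Ifnl3, Ifnab, Ly6d, Gzma, Nkg7, Klrk1 and Pnpt1. Replicates are different animals. Same-numbered arrays of the 2 genotypes had correlations of their deviations of 0.072, 0.020 and 0.070. Differently numbered arrays had lower ones, from -0.070 to 0.0034. The main fit did not take the numbers to pair the animals, and a fit with a replicate block is among the alternatives. Alternatives covered scaling, floor, filters, variance model, array weights, blocks, probe choice and leaving out each array.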

Additional observations from a re-analysis of the deposited data

How the results depend on the processing

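Over the alternatives, the 13 members that rose kept a positive difference in every fit that could test them. The count of members higher was between 11 and 14 under the scaling, floor, filter, robust variance, array weight, block and probe choices, 1 with no intensity trend (1 type I and 0 gamma genes, with 179 probes higher and 12 lower over the table) and 7 with only replicates 2 and 3 (1 gamma gene, 634 probes higher). Without single arrays it ran from 8 to 12, from 6 to 9 for type I and from 2 to 4 for gamma genes, while probes higher ran from 588 to 1026 and probes lower from 154 to 325. The median difference of type I genes then ran from 0.69 to 1.10. Gamma genes higher were 3 with only probes measured on all arrays, as Ifi47 and Gbp2 are then not tested and Gbp3 does not pass. After quantile normalization and cyclic loess, 1 member (Xaf1) was lower, and probes lower numbered 551 and 554, against 329; the share of calls that were higher was then 61.5% and 62.9%, against 76.4%. Gbp3 did not pass in either of these, with no floor, the pseudocount of 0.5, the stricter filter, robust variance, averaged probes or no intensity trend, or without wild-type replicate 2 or 3 or any 1 mutant array. The replicate block gave 14 members higher, with Usp18 (adjusted p = 0.0078) beside the 13, and changed no call of a member to lower; every array correlated best with its own number, at 0.072, 0.020 and 0.070. Among genes that did not pass in the main fit, Mx1 turned to -0.017 with array weights and -0.17 with only replicates 2 and 3. Without single arrays Mx1 ran from -0.30 to 0.37. Mx2 turned to -0.12 with only replicates 2 and 3, and Rsad2 ran between -0.17 and 0.64 without single arrays. Xaf1 turned to 0.36 with its probes averaged. Receptor and Jak-Stat genes higher numbered 0 to 2, negative regulators 1 with either block, and sensors 0 and other inducible genes 5 with no intensity trend, or 3 and 10 with only replicates 2 and 3. The cause of these shifts was not tested. Genes below the low-signal limit, 8 of 26 members, limit what the arrays can show.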

Other observations

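Pnpt1, an interferon-inducible ribonuclease of mitochondria, was at 7.54 log2 on mutant replicate 1 and between -0.32 and 0.46 on the 5 other arrays. Its difference of 2.69 ± 1.37 did not pass (limma adjusted p = 0.35).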
